A study of Homo sapiens with 16 samples.

Results

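Cytochrome P450 (CYP) genes and UDP-glucuronosyltransferase (UGT) genes encode enzymes that clear drugs, steroids, bile acids and fat-soluble vitamins. The 78 protein-coding genes whose symbols are CYP followed by a number, or UGT1A, UGT2A, UGT2B, UGT3A or UGT8, were taken by name from 19974 protein-coding genes of chromosomes 1 to 22 and X. They comprised 56 CYP and 22 UGT genes at 59 separate loci, since neighbours in a cluster shared sequence. The cells were H69, an immortalised human cell line derived from the epithelium of bile ducts (cholangiocytes). Recombinant human TGF-beta at 10 ng/ml or vehicle was given for 16 h, and no genotype or other agent distinguished the groups. Chromatin immunoprecipitation with sequencing was done for SMAD3, a transcription factor activated by the TGF-beta receptor, and for H3K27ac and H3K9ac, acetylation marks of active enhancers and promoters. There were 2 libraries per treatment for each of these 3 targets, labelled replicates 4 and 5 for SMAD3 and replicates 1 and 2 for the marks. All libraries came from this single line at passages 30 to 32, except that SMAD3 TGF-beta replicate 5 was labelled 30 to 33. Whether the replicates came from separate cultures is not stated in the labels, and p-values therefore cover only the spread between these libraries, which may be technical.

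A P450 enzyme holds a haem group, receives electrons from a reductase and inserts oxygen into its substrate. An enzyme of the UGT1A or UGT2 group can then join glucuronic acid to the product, which leaves in bile or urine. CYP families with low numbers mostly handle foreign compounds and are switched on by sensors such as the aryl hydrocarbon receptor and the pregnane X receptor, while others build or degrade sterols, bile acids, steroid hormones, vitamin D and retinoic acid. Hepatocytes carry most drug-metabolising activity of the liver, and cholangiocytes much less.

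The measure used here was the length of genome inside called peaks in the span of a gene with 10.0 kb on each side, in base pairs (bp) or kilobases (kb). The peak lists of the 12 libraries carry no counts of reads: depth is unknown, and peak length stands in for the strength of a mark. Files held 22451 to 34413 peaks for SMAD3, 82259 to 92714 for H3K27ac and 54682 to 61297 for H3K9ac. Changes are log2 of TGF-beta over vehicle on the scale of length plus 500 bp, after each library was centred on its median gene, which removed a rise of 0.32 in SMAD3, a rise of 0.09 in H3K27ac and a fall of 0.09 in H3K9ac. A gene was tested where its mean was at least 500 bp, with limma and Benjamini-Hochberg adjustment over all genes at 0.05. The TGF-beta replicate 2 libraries of both marks were run on sequencing lane 8 and the other libraries of the marks on lane 7, so a value without that replicate is a value within lane 7. All SMAD3 libraries were on lane 8. The cholangiocyte keratin KRT7 was covered by 12957 to 23346 bp of each mark with vehicle, whereas the cholangiocyte markers CFTR and SPP1 had no peak in any library. Both vehicle libraries had an H3K27ac peak in 9 of 13 hepatocyte markers and 7 of 10 cholangiocyte markers, where 72.4% of all genes did. Those hepatocyte markers included SERPINA1 (6602 and 7466 bp), FGB (5449 and 5799 bp) and APOB (5261 and 5407 bp), while ALB and TTR had no peak in any library.

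Start sites could be placed for 58 of the 78 genes from RefSeq promoter entries of GRCh38.p14. The 250 bases before the start are shown for the 5 genes with a called change, or a region gained or lost, and a peak in all or both libraries of a treatment at or within 1 kb of the start. CYP2R1 met the same rule and is not shown, since the start of its entry lies inside the gene span. The sequences are written 5′ to 3′ on the strand of the gene, and capitals mark motif matches. They lie at chr2:127220300-127220549 (CYP27C1), chr2:72147863-72148112 (CYP26B1), chr15:74725529-74725778 (CYP1A1), chr7:99679997-99680246 (CYP3A5) and chr7:99827763-99828012 (CYP3A43, the only one of them on the plus strand).
CYP27C1: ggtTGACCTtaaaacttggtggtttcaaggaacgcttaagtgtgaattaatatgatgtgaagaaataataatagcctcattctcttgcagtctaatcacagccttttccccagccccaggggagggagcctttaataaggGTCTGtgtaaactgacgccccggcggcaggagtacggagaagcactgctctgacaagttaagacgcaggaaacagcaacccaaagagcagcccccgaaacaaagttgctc
CYP26B1: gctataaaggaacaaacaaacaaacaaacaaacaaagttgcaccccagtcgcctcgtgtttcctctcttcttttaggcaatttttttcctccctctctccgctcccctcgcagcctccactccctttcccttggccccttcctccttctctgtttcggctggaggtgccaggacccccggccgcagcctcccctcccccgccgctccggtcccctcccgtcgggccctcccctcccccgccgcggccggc
CYP1A1: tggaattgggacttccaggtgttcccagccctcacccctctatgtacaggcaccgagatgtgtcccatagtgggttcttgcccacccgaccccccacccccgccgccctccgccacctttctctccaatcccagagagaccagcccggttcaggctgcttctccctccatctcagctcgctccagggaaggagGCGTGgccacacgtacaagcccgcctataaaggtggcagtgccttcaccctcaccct
CYP3A5: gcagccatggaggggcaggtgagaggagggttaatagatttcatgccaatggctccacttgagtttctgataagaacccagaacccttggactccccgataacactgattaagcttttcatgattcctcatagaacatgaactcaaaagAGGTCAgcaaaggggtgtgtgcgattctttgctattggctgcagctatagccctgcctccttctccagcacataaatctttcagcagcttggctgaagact
CYP3A43: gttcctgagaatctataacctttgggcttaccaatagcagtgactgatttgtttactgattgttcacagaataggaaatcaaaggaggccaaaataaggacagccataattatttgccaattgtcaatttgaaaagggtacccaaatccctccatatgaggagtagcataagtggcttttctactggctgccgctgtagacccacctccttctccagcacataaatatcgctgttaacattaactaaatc
Both strands were searched for the SMAD box CAGAC, the palindromic SMAD element GTCTAGAC, the AP-1 site TGANTCA, the aryl hydrocarbon receptor core GCGTG and AGGTCA, the repeated unit of nuclear receptor elements. CYP27C1 held CAGAC on the opposite strand at -110 to -106 from the start and AGGTCA on the opposite strand at -247 to -242. CYP1A1 held GCGTG on its own strand at -57 to -53, and CYP3A5 held AGGTCA on its own strand at -101 to -96. No motif was matched in these windows of CYP26B1 and CYP3A43. Of 15813 promoters of the same length, 36.7% held CAGAC, 39.1% GCGTG, 10.3% AGGTCA, 5.05% TGANTCA and 0.209% GTCTAGAC.

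Most CYP and UGT genes had no peak. In all 12 libraries together, 33 of the 78 genes at 31 loci had a peak in their window, and 45 had none. Of the 56 CYP genes 31 had a peak, against 2 of the 22 UGT genes. Both vehicle libraries had a peak in 20 genes for SMAD3 (25.6% of the 78), where 66.9% of all genes did. The corresponding numbers were 26 genes (33.3%) for H3K27ac against 72.4% of all genes, and 28 genes (35.9%) for H3K9ac against 76.4%. A peak was present in every library at 16 genes.

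The genes without any peak included the large liver clusters. Among them were CYP2A6, CYP2A7, CYP2A13, CYP2B6, CYP2C8, CYP2C18, CYP2C19, CYP2D6 and CYP2J2, which metabolise drugs and arachidonic acid, and CYP1A2. They also included 9 of 12 CYP4 genes, which hydroxylate fatty acids, namely CYP4A11, CYP4A22, CYP4F2, CYP4F3, CYP4F8, CYP4F11, CYP4F12, CYP4F22 and CYP4Z1. CYP7A1, the rate-limiting enzyme of bile acid synthesis, CYP3A7, and the steroidogenic genes CYP11B1, CYP11B2 and CYP17A1 were at 0 as well. Of the UGT genes, 8 of 9 UGT1A genes, all 10 UGT2 genes, UGT8 and UGT3A1 were at 0. These genes were not tested in any comparison.

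The 2 UGT genes with a peak had it in H3K9ac alone. UGT1A8, whose span contains the shared UGT1A locus, had 1 peak of 232 and 196 bp with vehicle and 232 and 257 bp with TGF-beta. Its middle lay at -8415 bp from the UGT1A8 start. UGT3A2 had a single peak of 302 bp in vehicle replicate 1. No UGT gene therefore had SMAD3 or H3K27ac peaks with either treatment.

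**Figure D1:**
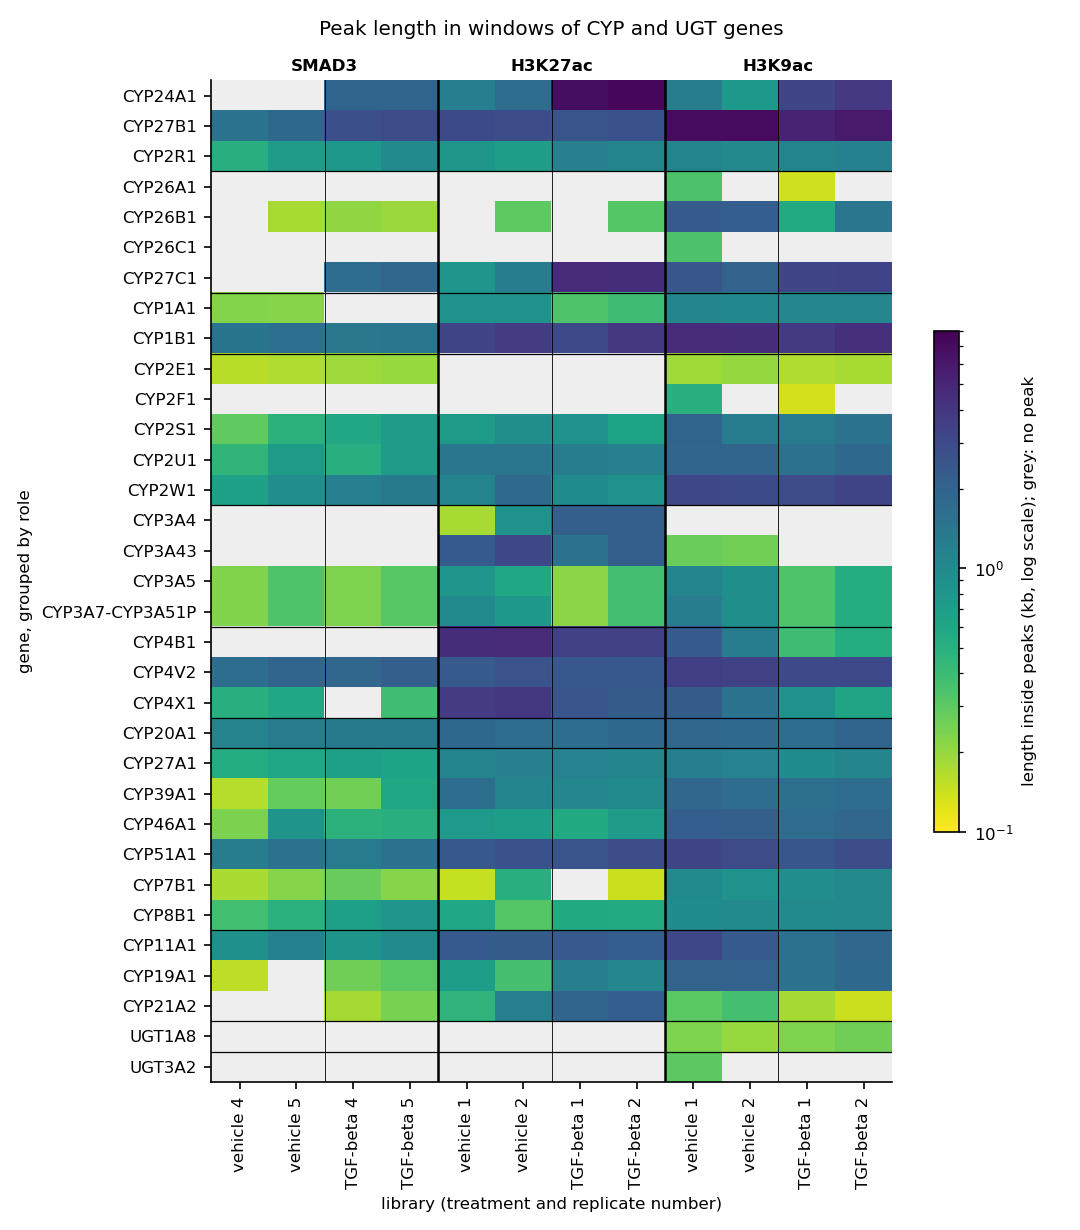
Length inside peaks (colour, kb on a log scale, grey where no peak was called) in the windows of the 33 genes with a peak (rows, grouped by role) in each of the 12 libraries (columns). CYP24A1 and CYP27C1 have no SMAD3 peak with vehicle, and the 2 UGT genes at the bottom have H3K9ac peaks only.

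With vehicle, CYP27B1, CYP1B1, CYP4V2, CYP51A1 and CYP11A1 were among the 10 genes with the longest coverage in every target. For SMAD3 the 10 genes with the longest mean were CYP4V2, CYP27B1, CYP1B1, CYP51A1, CYP20A1, CYP11A1, CYP2W1, CYP2R1, CYP2U1 and CYP27A1, from 1.79 kb down to 0.570 kb. For H3K27ac they were CYP4B1, CYP4X1, CYP1B1, CYP27B1, CYP3A43, CYP51A1, CYP4V2, CYP11A1, CYP20A1 and CYP24A1, from 4.57 kb down to 1.45 kb. For H3K9ac they were CYP27B1, CYP1B1, CYP4V2, CYP51A1, CYP2W1, CYP11A1, CYP26B1, CYP27C1, CYP46A1 and CYP19A1, from 7.05 kb down to 1.99 kb. Windows differ in size and can hold a neighbour: CYP27B1, with the longest H3K9ac coverage, shares its window with METTL1, EEF1AKMT3 and MARCHF9, whereas no other gene lies in the windows of CYP24A1, CYP27C1, CYP1A1, CYP4B1, CYP26B1 and CYP3A4.

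In SMAD3, 15 of the 78 genes could be tested, of which 2 rose, none fell and 13 passed in neither direction, beside 11.2% of all 12508 genes tested that rose and 1.68% that fell. At an unadjusted p under 0.05 limma had 3 of the 15 lower, and with its trend and robust settings 2 passed the adjusted threshold as falls. In H3K27ac, 24 genes were tested, of which 6 rose and 6 fell, beside 14.8% and 11.7% of all genes. In H3K9ac, 24 genes were tested, of which 2 rose and 6 fell, the latter at 5 loci, beside 4.25% and 5.22%. Of the tested genes, 5 in SMAD3 and 3 in each mark reached the minimum length through one treatment only, so that counts over tested genes do not describe all 78. The median change of the tested genes was -0.19 in SMAD3, -0.12 in H3K27ac and -0.06 in H3K9ac, where that of all tested genes was -0.03, -0.03 and 0.00. CYP24A1 and CYP27C1 were the genes that rose in all 3 targets, and no gene fell in all 3.

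**Figure D2:**
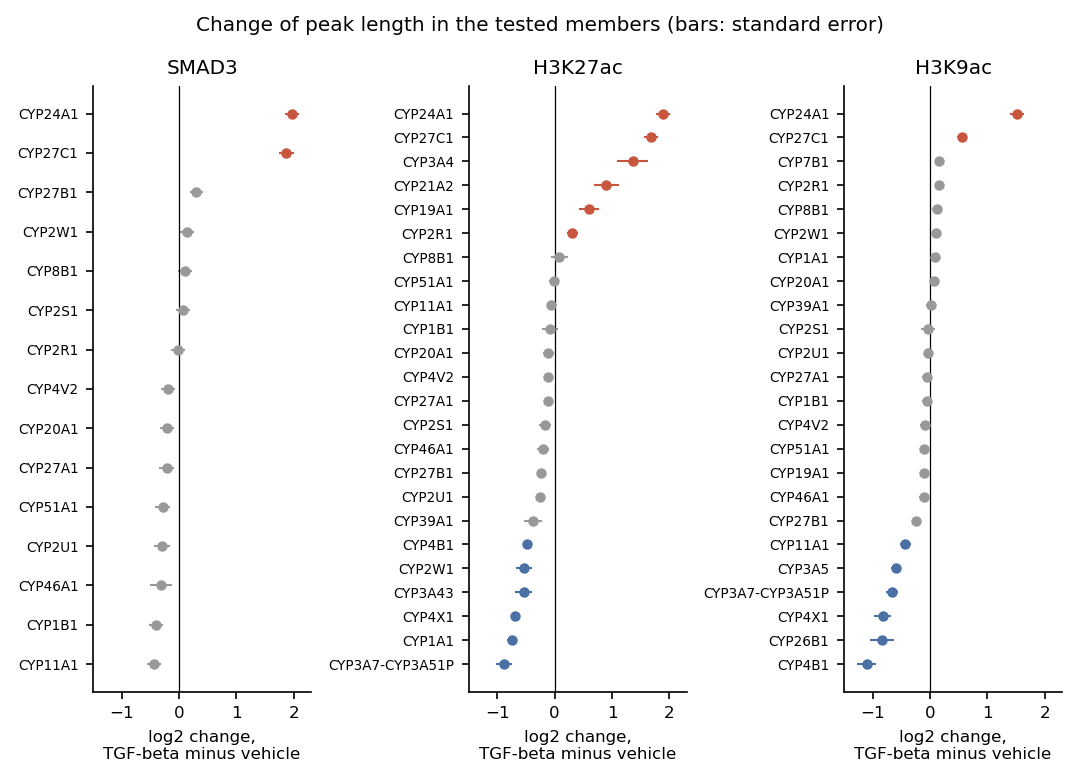
Change of peak length with TGF-beta (log2, points) with its standard error from limma (bars) for the tested genes of each target, in red where it rose, in blue where it fell and in grey where it passed in neither direction. CYP24A1 and CYP27C1 stand at the top of all 3 panels, between 0.56 and 1.97.

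Merged regions, made by joining peaks of the 4 libraries of a target that overlapped by at least 1 bp, were read by position. A region was taken as gained where both TGF-beta and no vehicle library had it, as lost in the reverse case and as constant where all 4 had it. SMAD3 had 39 regions in the windows, of which 6 (15.4%) were gained and 1 (2.56%) was lost, beside 13.7% and 0.669% of all SMAD3 regions. H3K27ac had 97 regions, of which 8 (8.25%) were gained and 5 (5.15%) lost, beside 12% and 4.72%. H3K9ac had 85 regions, of which 4 (4.71%) were gained and 6 (7.06%) lost, beside 5.15% and 6.15%. The share of SMAD3 regions lost rests on 1 region. Constant regions numbered 21, 43 and 46 in SMAD3, H3K27ac and H3K9ac. With a library left out, its treatment needs only the other one: 12 SMAD3 regions were then gained without TGF-beta replicate 4, and on removal of either vehicle replicate 4 or TGF-beta replicate 5 the lost regions numbered 2. In H3K27ac, 18 were gained without TGF-beta replicate 1, and 16 and 13 lost without vehicle replicates 1 and 2. In H3K9ac, 7 were gained without either TGF-beta replicate, and 12 and 21 lost without vehicle replicates 1 and 2. No share over all regions is given for these leave-out counts, so they do not set these genes apart from others.

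Vitamin D is activated by CYP2R1 and CYP27B1 and inactivated by CYP24A1, which hydroxylates the active hormone and is itself a classic target of the vitamin D receptor. CYP24A1 (chr20:54143538-54173986) had the largest rise of the 78 genes in each target. SMAD3 was listed at 0 in both vehicle libraries and covered 1958 and 1935 bp in the TGF-beta libraries. H3K27ac covered 1210 and 1680 bp with vehicle and 6751 and 7482 bp with TGF-beta. H3K9ac covered 1271 and 778 bp with vehicle and 3210 and 3890 bp with TGF-beta. The treatments did not overlap in any target. The log2 changes were 1.97 in SMAD3 (SE 0.129), 1.89 in H3K27ac (SE 0.116) and 1.52 in H3K9ac (SE 0.122), with adjusted p of 8.16e-05, 0.000161 and 0.000593 by limma. The SMAD3 value depends on the 500 bp added to a group at 0 (3.94 with 100 bp and 0.80 with 2000 bp) and is no measure of fold, and the gene reached the minimum in SMAD3 through TGF-beta alone.

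By position, the SMAD3 coverage of CYP24A1 lay at the higher-coordinate end of the gene. The main gained SMAD3 region, chr20:54172776-54174530, spanned 1755 bp and crossed that end. It overlapped a gained H3K27ac region at chr20:54173643-54175007 and a constant H3K9ac region of 1158 and 667 bp with vehicle that covered 2314 and 2339 bp with TGF-beta. A further gained SMAD3 region of 411 bp lay inside the gene, at -5594 bp from that end. The longer H3K27ac regions lay beyond the lower-coordinate end. There a constant region (chr20:54131230-54135264, which starts outside the window) measured 2411 and 2402 bp with vehicle and 4035 and 4001 bp with TGF-beta, and its best peak moved from score percentiles 70.8 and 77.9 of its library to 92.9 and 92.6. Another, at chr20:54139054-54141028, measured 222 and 313 bp with vehicle and 1923 and 1843 bp with TGF-beta. At this far side SMAD3 had 1 peak of 209 bp, in TGF-beta replicate 4 only. The nearest other protein-coding gene, PFDN4, was 34101 bp from CYP24A1.

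Of the activating enzymes, CYP2R1 rose in H3K27ac only, from 789 and 696 bp to 1182 and 1080 bp (0.31, SE 0.089, adjusted p = 0.0471 by limma). A gained region of 404 bp lay 645 bp from the start into the gene, at a place that PDE3B overlaps or comes within 1 kb of. Removing vehicle replicate 2 (limma adjusted p = 0.156), TGF-beta replicate 1 (0.179) or TGF-beta replicate 2 (0.119) ended the CYP2R1 call. CYP27B1, the renal activating enzyme, passed in no target. Its SMAD3 coverage was 1505 and 1826 bp with vehicle and 2742 and 2881 bp with TGF-beta (0.30 after centring, adjusted p = 0.136 by limma), and 2 short H3K27ac regions were lost, 1 of them at the end of the gene. VDR, which encodes the vitamin D receptor, rose in SMAD3 from 282 and 651 bp to 1362 and 1770 bp (0.79, SE 0.156, adjusted p = 0.0116 by limma) and passed in neither mark. In SMAD3, VDR reached the minimum length through TGF-beta alone.

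Retinoids are handled by the CYP26 enzymes, which degrade retinoic acid, and by CYP27C1, which desaturates retinol. CYP27C1 (chr2:127183832-127220299, minus strand) rose in all 3 targets. SMAD3 was listed at 0 in both vehicle libraries and covered 1667 and 1890 bp with TGF-beta. H3K27ac covered 795 and 1253 bp with vehicle and 4766 and 4498 bp with TGF-beta. H3K9ac covered 2474 and 1966 bp with vehicle and 3194 and 3325 bp with TGF-beta, without overlap. The log2 changes were 1.87 in SMAD3 (SE 0.131), 1.68 in H3K27ac (SE 0.124) and 0.56 in H3K9ac (SE 0.0856), with adjusted p of 0.000106, 0.00028 and 0.00764 by limma. The SMAD3 value again depends on the length added (3.82 with 100 bp and 0.74 with 2000 bp) and is no measure of fold, and the minimum there was reached through TGF-beta alone. Without centring the H3K9ac change was 0.47 and its adjusted p 0.0824, and with 50 kb on each side the change was 0.91.

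The gained SMAD3 region of CYP27C1, chr2:127218644-127220452, covered the start site and reached into the promoter sequence shown above, over a stretch that includes the CAGAC match but not the AGGTCA match. It lay inside a constant H3K27ac region that lengthened from 250 and 390 bp to 2260 and 2386 bp, and inside a constant H3K9ac region of 1601 and 1731 bp that reached 2498 and 2527 bp. Further upstream, at 6118 and 7228 bp before the start, 2 H3K27ac regions measured 170 to 221 bp with vehicle and 545 to 1102 bp with TGF-beta, with no SMAD3 peak. With vehicle the start of CYP27C1 thus carried more H3K9ac than H3K27ac length. Its change differed between the marks by 1.11 (SE 0.161, adjusted p = 0.00396, treatment by mark term of limma), where 7.38% of all genes had a called difference of either sign.

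**Figure D3:**
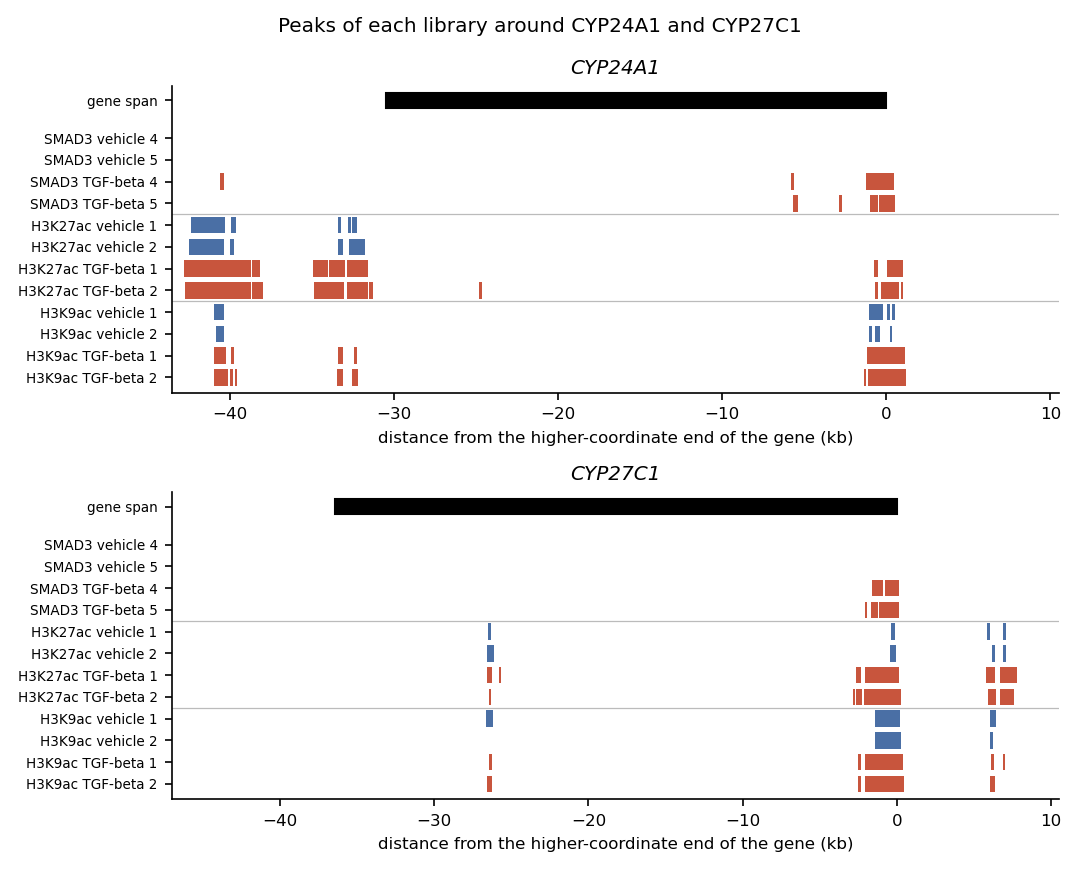
Peaks of each library (bars, blue for vehicle and red for TGF-beta) around CYP24A1 and CYP27C1, by distance from the higher-coordinate end of the gene (kb); for CYP27C1 this end is the start site. SMAD3 peaks appear in the TGF-beta libraries only, mostly at that end, and the longest H3K27ac regions of CYP24A1 lie beyond the other end.

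CYP26B1 fell in H3K9ac. Its coverage was 2282 and 2171 bp with vehicle and 550 and 1433 bp with TGF-beta, a fall of 0.84 (SE 0.21, adjusted p = 0.0489 by limma). Of its 7 H3K9ac regions 3 were lost, 1 of them over the start site at chr2:72147837-72148001, where vehicle peaks were 152 and 145 bp long and ranked low in their libraries (score percentiles 17.8 and 11.7). The call is at the threshold: without centring the adjusted p was 0.0925, with 100 bp added in place of 500 bp it was 0.114, with limma's trend and robust settings 0.0765, and with 50 kb on each side 0.457 (change -0.15). Without TGF-beta replicate 1 the change was -0.47. CYP26B1 had at most 315 bp of H3K27ac and 206 bp of SMAD3 in any library. CYP26A1 and CYP26C1 had H3K9ac peaks in vehicle replicate 1 (341 bp each, from the same peaks) and CYP26A1 in TGF-beta replicate 1 (137 bp), and nothing else.

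Genes for retinoic acid receptors, for retinoid carriers and for other enzymes that convert retinoids were read beside these CYP genes. Of 12 such genes, 5 were tested in SMAD3 with 2 rising and none falling, 8 in H3K27ac with 3 rising and none falling, and 8 in H3K9ac with 1 rising and 1 falling. At an unadjusted p under 0.05, limma had 0 lower in SMAD3 and 1 lower in H3K27ac, and the medians were 0.25, 0.08 and 0.07. Of all genes tested, 11.2% rose and 1.68% fell in SMAD3, 14.8% and 11.7% in H3K27ac, and 4.25% and 5.22% in H3K9ac. RARA, which encodes a retinoic acid receptor, rose in SMAD3 from 2675 and 5118 bp to 17700 and 14189 bp (1.63, SE 0.206, adjusted p = 0.00147 by limma). DHRS3, which reduces retinaldehyde, rose in H3K27ac from 4771 and 5108 bp to 7244 and 7229 bp, and the retinoic acid carrier CRABP2 from 563 and 501 bp to 1466 and 1341 bp. RARG fell in H3K9ac by 0.34 (SE 0.0777, adjusted p = 0.0365 by limma).

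CYP1A1 and CYP1B1 oxidise aromatic hydrocarbons and are induced through the aryl hydrocarbon receptor. CYP1A1 (chr15:74719542-74725528, minus strand) had the only SMAD3 region of the set that was lost. That region, chr15:74726284-74726553, measured 224 and 222 bp with vehicle and was not called with TGF-beta, and its middle was 890 bp upstream of the start. These peaks ranked low, at score percentiles 4.54 and 30.5 of their libraries, and the SMAD3 coverage of the gene was under the minimum for the test. H3K27ac at the same place covered 863 and 863 bp with vehicle and 336 and 391 bp with TGF-beta, a fall of 0.75 (SE 0.0825, adjusted p = 0.00123 by limma). The gene reached the minimum for this test, and for that of the marks, through vehicle alone, since its H3K27ac mean with TGF-beta was 0.363 kb. H3K9ac covered 1082 and 1042 bp with vehicle and 1048 and 1057 bp with TGF-beta (0.08, adjusted p = 0.598 by limma). The groups overlapped in H3K9ac and were far apart in H3K27ac. The change differed between the marks by -0.84 (SE 0.114, adjusted p = 0.00335, treatment by mark term of limma). With 50 kb on each side the H3K27ac change was -0.40 and the difference -0.31. The H3K9ac and H3K27ac regions ended 92 and 113 bp before the start, so the GCGTG match shown above lay between them and the start.

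CYP1B1 passed in no target. It carried a constant region at its higher-coordinate end in all 3 targets. SMAD3 covered 1454 and 1627 bp with vehicle and 1394 and 1429 bp with TGF-beta, which after centring was a change of -0.41 with an adjusted p of 0.056 by limma. H3K27ac (3180 and 3746 bp with vehicle, 3018 and 4016 bp with TGF-beta) and H3K9ac (4749 and 4475 bp, then 3779 and 4417 bp) passed in neither direction. RMDN2 lies in the window of CYP1B1. Of 14 genes encoding sensors of foreign compounds and bile acids, 3 rose and 1 fell among 11 tested in SMAD3, 2 rose and 2 fell among 12 in H3K27ac, and 1 rose and 1 fell among 12 in H3K9ac, with medians of 0.01, 0.10 and -0.02. Of all genes tested, 11.2% rose and 1.68% fell in SMAD3, 14.8% and 11.7% in H3K27ac, and 4.25% and 5.22% in H3K9ac. AHRR, the repressor of the aryl hydrocarbon receptor, fell in SMAD3 from 1710 and 1760 bp to 1174 and 1509 bp (0.61 after centring, adjusted p = 0.0213 by limma). Part of that fall comes from centring, which removed a rise of 0.32 in SMAD3. In H3K27ac AHRR fell by 0.31 (adjusted p = 0.0277 by limma). AHR itself passed in no target. KEAP1, which holds back the antioxidant factor NFE2L2, rose in all 3 targets, by 0.48, 0.64 and 0.44. RXRA, the partner with which many nuclear receptors pair, fell in both marks, by 0.40 in H3K27ac and 0.76 in H3K9ac.

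**Figure D4:**
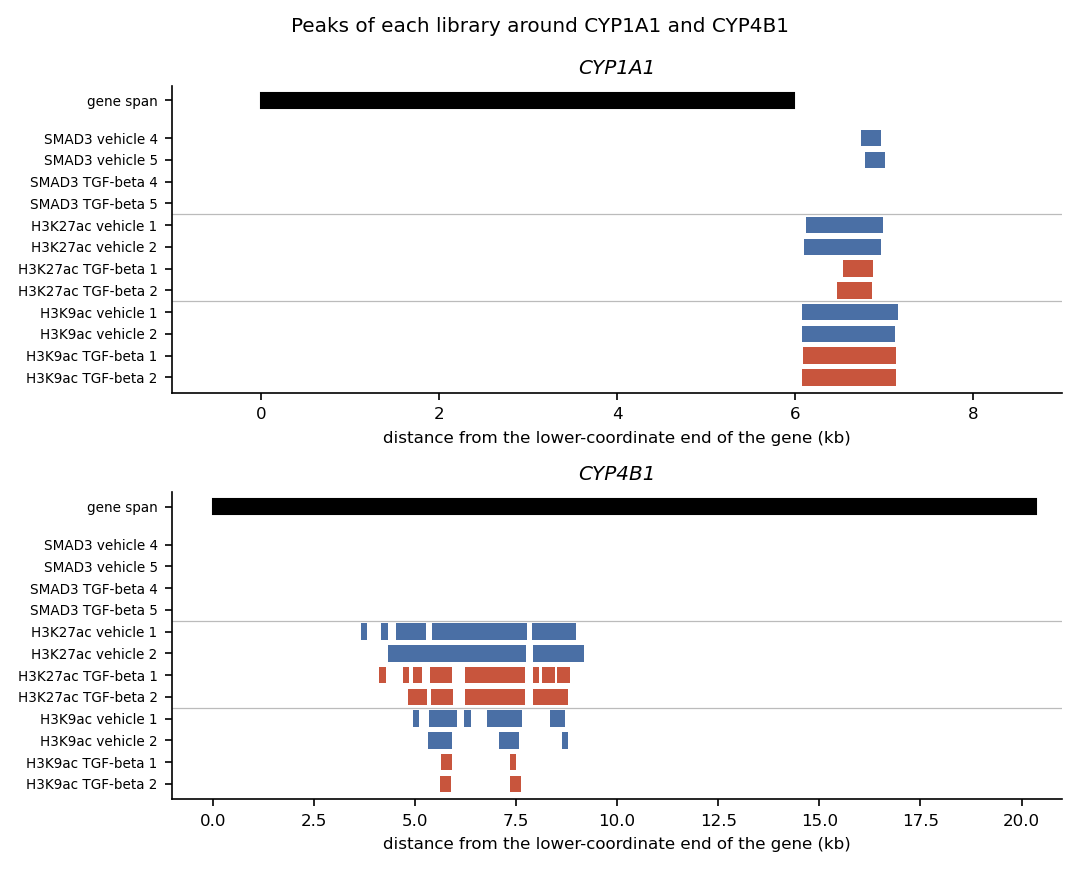
Peaks of each library (bars, blue for vehicle and red for TGF-beta) around CYP1A1 and CYP4B1, by distance from the lower-coordinate end of the gene (kb); for CYP4B1 this end is the start site, and CYP1A1 starts at its other end. At CYP1A1 the SMAD3 peak is absent and H3K27ac shorter with TGF-beta while H3K9ac covers 1042 to 1082 bp in all 4 libraries, and at CYP4B1 both marks are shorter within the gene.

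The CYP3A genes form 1 cluster on chromosome 7 and oxidise a large share of drugs, under control of the pregnane X receptor. Calls among them went in both directions. CYP3A4 rose in H3K27ac from 176 and 851 bp to 2107 and 2106 bp (1.36, SE 0.266, adjusted p = 0.0112 by limma). It had no SMAD3 or H3K9ac peak in any library. Of its 4 H3K27ac regions, 3 lay upstream, from chr7:99790573 to chr7:99793851, with middles 6677, 7831 and 9114 bp before the start, and the last of these was gained. The other, of 269 bp at chr7:99751867-99752135, lay beyond the other end of the gene. Without vehicle replicate 1 the change was 0.90. A distal enhancer that binds the pregnane X receptor is known upstream of CYP3A4. With 50 kb on each side the change was 0.20 and its adjusted p 0.337, and with 100 bp added the adjusted p was 0.0553.

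CYP3A5, the form most often found outside the liver, had peaks of all 3 targets within 1 kb of its start. H3K9ac covered 1087 and 895 bp with vehicle and 337 and 533 bp with TGF-beta, a fall of 0.59 (SE 0.0877, adjusted p = 0.00728 by limma). It reached the minimum through vehicle alone, with a mean of 0.435 kb with TGF-beta. H3K27ac covered 810 and 589 bp with vehicle and 215 and 372 bp with TGF-beta, without overlap, but its mean was under the minimum and it was not tested. SMAD3 covered 230 and 337 bp with vehicle and 233 and 312 bp with TGF-beta. This SMAD3 region (chr7:99679763-99680099) crossed the start and reached into the promoter sequence shown above, over a stretch that includes its AGGTCA match, while the H3K9ac and H3K27ac regions ended 93 and 95 bp inside the gene. The window of the readthrough gene CYP3A7-CYP3A51P contains the same peaks and a short further one, so its falls by limma in H3K27ac (0.88, adjusted p = 0.00492) and H3K9ac (0.66, adjusted p = 0.00861) are of the same locus and no separate result, and it too reached the minimum through vehicle alone. Without H3K27ac vehicle replicate 1 that gene was under the minimum. With 50 kb on each side the H3K9ac change of CYP3A5 was -0.31 (adjusted p = 0.103 by limma). ZSCAN25 overlaps this locus.

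CYP3A43 fell in H3K27ac, from 2311 and 3076 bp to 1549 and 2108 bp (0.54, SE 0.149, adjusted p = 0.0384 by limma). Within 5 kb of its start, H3K27ac covered 2003 and 2880 bp with vehicle and 473 and 746 bp with TGF-beta, while a region of 436 bp was gained 32028 bp into the gene. Its only H3K9ac region, of 271 and 255 bp with vehicle, was lost, with its middle at -961 bp from the start. The H3K27ac call ended on removal of vehicle replicate 2 (change -0.41) or TGF-beta replicate 1 (-0.35). With 50 kb on each side the change was 0.44 and passed as a rise (adjusted p = 0.0424 by limma). NR1I2, which encodes the pregnane X receptor, had no SMAD3 peak, a single H3K27ac peak of 196 bp, and H3K9ac of 626 and 323 bp with vehicle and 0 and 249 bp with TGF-beta.

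CYP4 enzymes hydroxylate fatty acids and related lipids. CYP4B1 and CYP4X1 lie in 1 cluster on chromosome 1 and fell in both marks, while the neighbouring CYP4A11, CYP4A22 and CYP4Z1 had no peak. At CYP4B1 (chr1:46799046-46819413), H3K27ac covered 4480 and 4660 bp with vehicle and 3394 and 3357 bp with TGF-beta, a fall of 0.48 (SE 0.0724, adjusted p = 0.00425 by limma) that was -0.77 with 50 kb on each side. H3K9ac covered 2290 and 1252 bp with vehicle and 392 and 530 bp with TGF-beta, a fall of 1.11 (SE 0.165, adjusted p = 0.00692). In H3K9ac the minimum was reached through vehicle alone, with a mean of 0.461 kb with TGF-beta. There was no SMAD3 peak. All its regions lay within the gene between the start and the middle, the longest at chr1:46803391-46806815, and the best H3K27ac peak there moved from score percentiles 72.9 and 77.3 to 64.9 and 62.3. The difference between the falls of the marks missed the threshold (0.63, SE 0.206, adjusted p = 0.102, treatment by mark term of limma).

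At CYP4X1 (chr1:46961364-47055432), H3K27ac covered 3730 and 3923 bp with vehicle and 2511 and 2196 bp with TGF-beta, a fall of 0.69 (SE 0.0798, adjusted p = 0.00147 by limma). H3K9ac covered 2204 and 1513 bp with vehicle and 862 and 617 bp with TGF-beta, a fall of 0.83 (SE 0.154, adjusted p = 0.0174). The H3K27ac regions called in all 4 libraries were far from the start, at 62717 to 70479 bp into the gene. SMAD3 had 1 region there, of 516 and 587 bp with vehicle and of 0 and 383 bp with TGF-beta, too short to be tested. CYP4V2, a fatty acid hydroxylase named in a retinal dystrophy, had a constant region at its start in all 3 targets and passed in no direction, with changes of -0.19, -0.11 and -0.09.

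**Figure D5:**
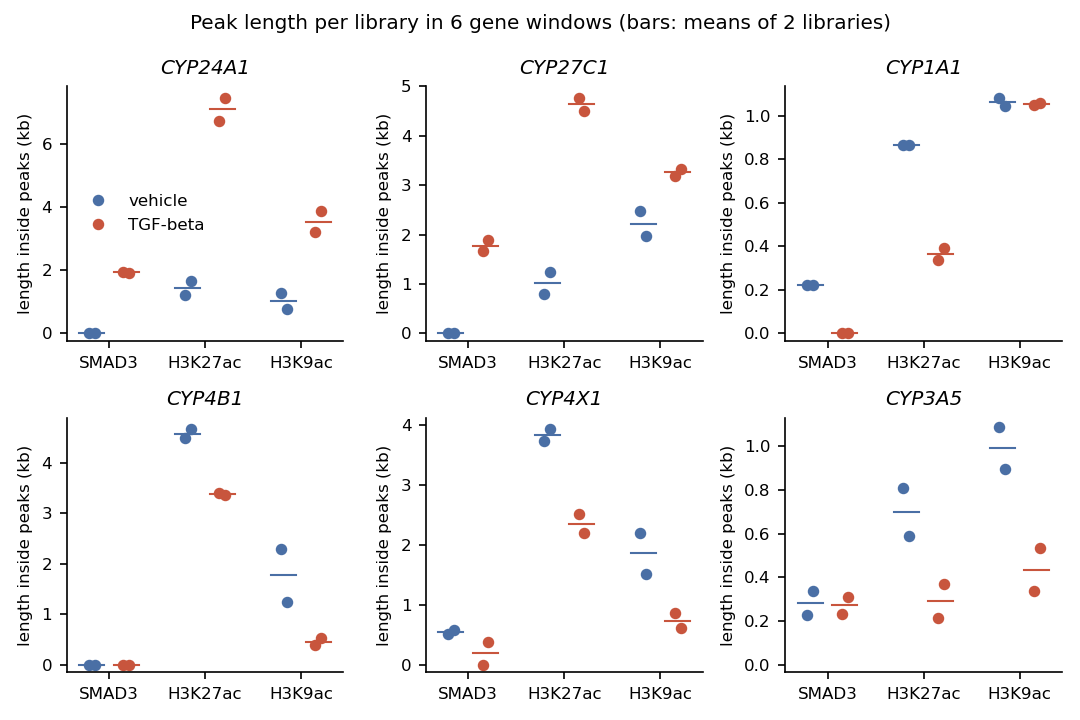
Length inside peaks (kb) per library for 6 genes in SMAD3, H3K27ac and H3K9ac, with vehicle in blue and TGF-beta in red; each point is a library and bars are means of 2. CYP24A1 and CYP27C1 are higher with TGF-beta in all 3 targets, CYP1A1 is lower in SMAD3 and H3K27ac, and CYP4B1 and CYP4X1 are lower in both marks.

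CYP2 enzymes are mainly drug-metabolising, and 5 of 15 had a peak. CYP2S1 and CYP2U1, which are expressed outside the liver, had constant regions at their starts in all 3 targets and passed in no direction. The nearest to a call was CYP2U1 in H3K27ac, with 1433 and 1442 bp with vehicle and 1266 and 1196 bp with TGF-beta (-0.25, adjusted p = 0.0503 by limma). CYP2W1, an enzyme best known from tumours, fell in H3K27ac from 1109 and 1761 bp to 973 and 846 bp (0.53, SE 0.139, adjusted p = 0.0336 by limma). Leaving out vehicle replicate 2 ended this call (-0.32, limma adjusted p = 0.0637), as did leaving out TGF-beta replicate 1 (0.0601) or 2 (0.113). At 1 place in CYP2W1, chr7:988445-988870, a SMAD3 region was gained (286 and 426 bp) where a lost H3K27ac region of 194 bp overlapped it. This place is within 1 kb of CHLSN. The constant H3K27ac region of the window, chr7:974683-975528, lies in or within 1 kb of COX19, with its middle at -8075 bp from the CYP2W1 start. Within 5 kb of that start no library had H3K27ac, and with 2.5 kb on each side the gene was not tested. CYP2E1, an ethanol-oxidising enzyme, had a single short region at -6832 bp from its start in SMAD3 (161 and 169 bp with vehicle, 191 and 197 bp with TGF-beta) and one at the same place in H3K9ac (188 and 201 bp, then 169 and 176 bp), and no H3K27ac.

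Bile acid and sterol enzymes had no call. Of 7 such genes, 6 had a peak, and 4, 5 and 6 were tested in SMAD3, H3K27ac and H3K9ac, of which 1, 1 and 0 had an unadjusted limma p under 0.05. CYP51A1, a lanosterol demethylase of cholesterol synthesis, covered 2386 and 2650 bp of H3K27ac with vehicle and 2556 and 2802 bp with TGF-beta (-0.01, SE 0.0838, adjusted p = 0.933 by limma). CYP27A1, which starts the alternative route of bile acid synthesis, covered 1113 and 1184 bp with vehicle and 1146 and 1070 bp with TGF-beta (-0.12, SE 0.0725, adjusted p = 0.262). CYP39A1 and CYP46A1, which act on oxysterols and on brain cholesterol, had H3K27ac changes of -0.38 and -0.20 that missed the threshold. CYP7B1, an oxysterol hydroxylase, had H3K9ac in every library (842 to 1024 bp) and lost 1 short H3K27ac region. A gained SMAD3 region of 191 bp lay 5455 bp beyond CYP8B1, the sterol 12-hydroxylase, whose gene itself had no region within 1 kb. Among 14 other genes of sterol synthesis and its control, all tested, limma called none in SMAD3 or H3K9ac (2 and 3 at an unadjusted p under 0.05), and 2 fell in H3K27ac, SREBF2 by 0.34 and INSIG2 by 0.46. The median change of these 14 was -0.02, -0.06 and -0.03 in SMAD3, H3K27ac and H3K9ac. Of all genes tested, 11.2% rose and 1.68% fell in SMAD3, 14.8% and 11.7% in H3K27ac, and 4.25% and 5.22% in H3K9ac. CYP20A1, whose substrate is not known, had a constant region at its start in all 3 targets and changes of -0.21, -0.11 and 0.07, none called.

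Steroid hormone enzymes had calls at long or crowded loci. CYP11A1, which cleaves the cholesterol side chain, fell in H3K9ac from 3128 and 2283 bp to 1557 and 1871 bp (0.43, SE 0.103, adjusted p = 0.0427 by limma). Without vehicle replicate 1 its adjusted p was 0.0912, and without TGF-beta replicate 1 it was 0.148. With 50 kb on each side the H3K9ac change was 0.66 and passed as a rise (adjusted p = 0.00994 by limma). CYP19A1, the aromatase, rose in H3K27ac from 700 and 362 bp to 1227 and 1044 bp (0.60, SE 0.172, adjusted p = 0.0458 by limma). Its regions were short (140 to 579 bp) and none lay within 1 kb of the start. That call did not survive the removal of vehicle replicate 2 (change 0.32), TGF-beta replicate 1 (0.53) or TGF-beta replicate 2 (0.66). With 50 kb on each side the change was -0.87 and passed as a fall (adjusted p = 0.00273 by limma). CYP21A2, the 21-hydroxylase, rose in H3K27ac from 460 and 1186 bp to 1901 and 2152 bp (0.90, SE 0.222, adjusted p = 0.0269 by limma). The constant region that carried most of this length, chr6:32046318-32048284, has its middle 5657 bp beyond CYP21A2 and lies in or within 1 kb of TNXB, as does the gained SMAD3 region of 241 bp. Without TGF-beta replicate 2 the adjusted p was 0.082 by limma, without vehicle replicate 1 the change was 0.53, and with 50 kb on each side the change was 0.07 (adjusted p = 0.497). CYP21A2 has a near-identical pseudogene and is reported as uncertain.

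Factors that drive CYP and UGT genes in liver were read in the same way. Of 11 such genes, 2 rose among 6 tested in SMAD3, 3 rose and 2 fell among 8 in H3K27ac, and 2 rose and 2 fell among 10 in H3K9ac, with medians of 0.03, 0.01 and -0.02. Of all genes tested, 11.2% rose and 1.68% fell in SMAD3, 14.8% and 11.7% in H3K27ac, and 4.25% and 5.22% in H3K9ac. HNF4A rose in all 3: SMAD3 was listed at 0 in both vehicle libraries and covered 1450 and 1270 bp with TGF-beta, and H3K9ac went from 857 and 394 bp to 2675 and 2612 bp (1.60, SE 0.153, adjusted p = 0.00115 by limma). In SMAD3, HNF4A reached the minimum length through TGF-beta alone, and a change from a group at 0 is no measure of fold. NR5A2, a driver of bile acid genes, fell in H3K27ac by 0.54 and in H3K9ac by 0.83.

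Partners of the enzymes had peaks in every target. All 11 genes for redox partners and haem supply were tested in each target. ALAS1, the first enzyme of haem synthesis, fell in SMAD3 from 796 and 880 bp to 635 and 742 bp (0.49 after centring, adjusted p = 0.0329 by limma). Part of that fall comes from centring, which removed a rise of 0.32 in SMAD3. In H3K27ac ALAS1 fell from 3396 and 3668 bp to 1812 and 1523 bp (0.99, SE 0.0844, adjusted p = 0.000471 by limma). CYB5A, an electron donor, fell in H3K27ac by 0.57, and HMOX1, which degrades haem, rose there by 0.27. PGRMC2 rose in SMAD3 and FDX2 in H3K9ac, and no other gene of the 11 was called. None fell in H3K9ac, with 4 lower at an unadjusted limma p under 0.05, and the medians were -0.09, 0.03 and -0.00. Of the 5 genes that supply UDP-glucuronic acid or hydrolyse its conjugates, limma called none in any target, with 1 in each target at an unadjusted p under 0.05 and medians of -0.20, 0.08 and 0.07. Of 22 glutathione and sulfo-transferase genes, 1 fell among 9 tested in SMAD3, 4 rose and 3 fell among 11 in H3K27ac, and 2 fell among 13 in H3K9ac, with medians of -0.02, 0.08 and -0.05. None rose in SMAD3 or H3K9ac, with 0 and 2 higher at an unadjusted limma p under 0.05. These genes were counted singly and not joined into loci, so neighbours that share peaks can count more than once. Of all genes tested, 11.2% rose and 1.68% fell in SMAD3, 14.8% and 11.7% in H3K27ac, and 4.25% and 5.22% in H3K9ac. SULT1A1, a phenol sulfotransferase, fell in all 3, by 0.53, 0.83 and 0.65. Its SMAD3 lengths overlapped, at 615 and 832 bp with vehicle and 500 and 616 bp with TGF-beta. Part of its SMAD3 fall comes from centring, which removed a rise of 0.32 in that target. GSTZ1 rose in H3K27ac from 2960 and 2431 bp to 6739 and 6539 bp (1.08, SE 0.112, adjusted p = 0.000983 by limma).

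Some markers of cell types moved with treatment in H3K27ac too, and their part in the results above was not tested. Their counts in SMAD3 and H3K9ac are not given here. Of all genes tested in H3K27ac, 14.8% rose and 11.7% fell, with a median of -0.03. Marker genes were not joined into loci, so neighbours that share peaks can count more than once. The summed H3K27ac length of 13 hepatocyte markers was 26.1 and 28.3 kb with vehicle and 21.3 and 21.8 kb with TGF-beta, with 1 rising and 5 falling among 8 tested (median -0.47), and ALB, TTR and PCK1 at 0. APOB fell from 5261 and 5407 bp to 689 and 698 bp. The sum of 11 mesenchymal and endothelial markers was 39.4 and 40.2 kb with vehicle and 48.1 and 50.1 kb with TGF-beta, with 4 rising and 1 falling among 7 tested (median 0.33), and DES and DCN at 0. That of 10 cholangiocyte markers was 58.8 and 63.6 kb with vehicle and 57.3 and 57.4 kb with TGF-beta, with 1 rising and 3 falling among 6 tested (median -0.27). That of 8 leukocyte markers was 17.3 and 20.1 kb with vehicle and 16.1 and 16.3 kb with TGF-beta, with 1 falling among 5 tested (median -0.22).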

How the data were processed

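The authors deposited 1 peak list per library with position and a score, MACS2 being named in them per the file headers. From its range, the deposited score was read as the -log10 of a p or q value (which of them was not given in the sources used here). Per the submitters' processing notes, BWA, Picard, MACS2 and bedtools were used and the build was hg38; parameters and input controls were not given in the sources used here. Scores served only to rank peaks within a library. The 4 input samples were not used here.

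Each gene's value was the length inside peaks over its RefSeq GRCh38.p14 span with 10.0 kb on each side, computed in Python 3.11.15 (numpy 2.4.6, pandas 2.3.3, matplotlib 3.10.9). The annotation gives no exons, so exon or intron is not given. Log2 of length plus 500 bp was fitted per target on all genes with limma 3.58.1 in R 4.3.3 (2 libraries against 2), and on the 8 libraries of the marks for the treatment by mark term. An exact permutation test of 2 against 2 cannot go below 0.333. On simulated data, changes of 1 and 2 log2 units were recovered in 45% and 68% of genes in SMAD3 (12508 genes), 78% and 88% in H3K27ac (13994 genes), and 90% and 94% in H3K9ac (14605 genes). There the spreads were shuffled over genes and changes were added on the scale of length plus 500 bp. Genes that dropped under the minimum length counted as not recovered. These percentages therefore do not give the power for the 78 genes.

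Members, 11 lists with 132 genes (131 matched) and tests were chosen with earlier results of these data known. Genes of the lists were counted singly and not joined into loci, so listed genes that share peaks can count more than once. Named genes were all called members; up to 8 a direction with TGF-beta libraries outside the vehicle range; the 10 longest with vehicle; those at 0 in one treatment only; those without peaks; and up to 4 called genes per list. Alternatives changed the added length, the filter, the centring, the window, the number of peaks, the limma settings and the libraries. Some genes that the naming rule covers are not reported here.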

Additional observations from a re-analysis of the deposited data

Results flagged for a closer look

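For 2 of 21 genes tested, the effect of TGF-beta differed between the acetylation marks by the treatment by mark term of limma. Beside this, 7.38% of all 13600 genes tested had a called difference of either sign. For CYP27C1 the H3K27ac change minus the H3K9ac change was 1.11 on the log2 scale (SE 0.161, adjusted p = 0.00396): H3K27ac rose from 795 and 1253 bp to 4766 and 4498 bp, and H3K9ac from 2474 and 1966 bp to 3194 and 3325 bp. For CYP1A1 the difference was -0.84 (SE 0.114, adjusted p = 0.00335): H3K27ac fell from 863 and 863 bp to 336 and 391 bp, reaching the minimum length through vehicle alone, while H3K9ac was 1082 and 1042 bp with vehicle and 1048 and 1057 bp with TGF-beta.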

How the results depend on the processing

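Calls of CYP24A1 in all 3 targets, of CYP27C1 in SMAD3 and H3K27ac, and of CYP1A1 and CYP4B1 in H3K27ac held under every alternative run. With no filter on low values, those of CYP2W1, CYP3A43, CYP2R1 and CYP19A1 in H3K27ac and of CYP26B1 and CYP11A1 in H3K9ac ended (limma adjusted p from 0.0545 to 0.101). For the counts of genes called that follow, neither the number tested nor the share over all genes is given. They therefore do not set these genes apart from others. The number of the 78 genes called in SMAD3 (2) was 4 with no filter on low values, 6 with 50 kb on each side and 4 with limma's trend and robust settings. Leaving out 1 library gave 2 to 3 in SMAD3, 8 to 11 in H3K27ac and 7 to 8 in H3K9ac. In H3K27ac (12) it was 7 with 2.5 kb, 24 with 50 kb and 7 within 5 kb of the start site. In H3K9ac (8) it was 5 without centring, 14 with 50 kb and 3 within 5 kb of the start site. For genes without a placed start, CYP24A1 among them, the start-site setting took 5 kb around both gene ends. The treatment by mark term (2) called 4 with 2000 bp added and 6 with 50 kb. Leaving out 1 library gave 2 to 4 of the latter, with 4 without H3K27ac vehicle replicate 1 or without H3K9ac vehicle replicate 2. With 50 kb the change of CYP3A43 in H3K27ac turned to 0.44 (adjusted p = 0.0424 by limma) and that of CYP19A1 to -0.87 (0.00273). That of CYP11A1 in H3K9ac turned to 0.66 (adjusted p = 0.00994 by limma). All of these passed the threshold in the direction opposite to the main call. The window then takes in other genes. Replicate numbers were not shown to pair the libraries (correlations of same-numbered deviations -0.07, -0.02 and -0.14 in SMAD3, H3K27ac and H3K9ac), and a replicate block left 2, 12, 8 and 2 genes called. The crossed block in H3K9ac, added after seeing the data, called 7 and ended the call of CYP26B1 (adjusted p = 0.051 by limma). With the upper 75% of peaks by score, 0 SMAD3 regions were lost, and 0 H3K9ac regions were gained and 2 lost. Region counts with a library left out were: SMAD3 gained 7 to 12 (12 without TGF-beta replicate 4), SMAD3 lost 1 to 2 (2 without vehicle replicate 4 or TGF-beta replicate 5), H3K27ac gained 9 to 18 (18 without TGF-beta replicate 1), H3K27ac lost 7 to 16 (16 and 13 without vehicle replicates 1 and 2), H3K9ac gained 4 to 7 (7 without either TGF-beta replicate), and H3K9ac lost 7 to 21 (12 and 21 without vehicle replicates 1 and 2); a region then needs 1 library where it had needed 2. No share over all regions is given for these region counts, so they do not set these genes apart from others. The cause of the other moves was not tested. Read depth is unknown, so that a missing peak cannot be told from low depth.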
